A study of Mus musculus with 4 samples.

Results

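The digestive secretory products described here are 8 genes: Pgc, Pga5, Cblif, Chia1, Chil5, Clps, Pnliprp1 and Spink1. They were chosen by name, and each was read from the probe set whose only gene in the platform annotation is that symbol. All 8 were found, each with 1 probe set, among 19938 genes measured on the array. The study took mucous neck cells and zymogenic cells from the adult stomach of C57BL/6 mice by laser capture microdissection, in which chosen cells are cut from a tissue section under the microscope. It used wild-type mice and MIST1 knockout (Mist1-/-) mice, here called MIST1-null, and measured RNA on Affymetrix Mouse Gene ST arrays. The 4 groups were wild-type neck, wild-type zymogenic, MIST1-null neck and MIST1-null zymogenic cells, with 1 array each. Each array held RNA combined from multiple dissections and animals, so the spread between mice was not measured, every comparison is between 2 arrays, and no test was run.

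Zymogenic cells, also called chief cells, lie at the base of the gastric gland and release granules of digestive enzymes. They are held to arise from mucous neck cells, which lie higher in the gland and secrete mucus. MIST1, the product of Bhlha15, is a basic helix-loop-helix transcription factor that builds the secretory apparatus of zymogenic cells, pancreatic acinar cells and other cells that store granules. The products fall into 4 roles: pepsinogens that digest protein (Pgc and Pga5), a carrier of vitamin B12 (Cblif, gastric intrinsic factor), proteins of the chitinase family (Chia1 and Chil5), and proteins best known from the pancreas (the lipase cofactor Clps, the lipase-related Pnliprp1 and the trypsin inhibitor Spink1).

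Values are array intensities on a linear scale, and differences are log2 values, in which 1 is a 2-fold difference. A gene counted as detectable in a comparison where its higher value reached 43.7, the median over all probe sets with 1 gene. This level sets a size and does not measure background. Array medians lay between 37.9 and 40.9. Bhlha15 read 59.7 in wild-type neck, 150 in wild-type zymogenic, 20.2 in MIST1-null neck and 22.0 in MIST1-null zymogenic cells, so both MIST1-null arrays were under the detection level. Muc6, the gland mucin of neck cells, read 2511 and 2980 in the neck arrays and 26.7 and 20.7 in the zymogenic arrays. Zymogenic cells had been picked as cells basal to a lectin that stains neck cell mucus, so mucus genes stand close to that choice.

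The 8 products did not share 1 pattern. In both genotypes, Cblif, Chia1, Chil5 and Pnliprp1 exceeded their neck cell values by 2-fold or more in zymogenic cells. With each array centred on its median, the wild-type differences of Cblif (0.98) and Pnliprp1 (0.99) came just under 2-fold. Pgc and Clps read near the top of the array in all 4 groups and were within 2-fold everywhere. Pga5 ran the other way, high in neck cells and under the detection level in zymogenic cells of both genotypes. Spink1 was high in wild-type zymogenic cells alone among the 4 arrays.

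**Figure D1:**
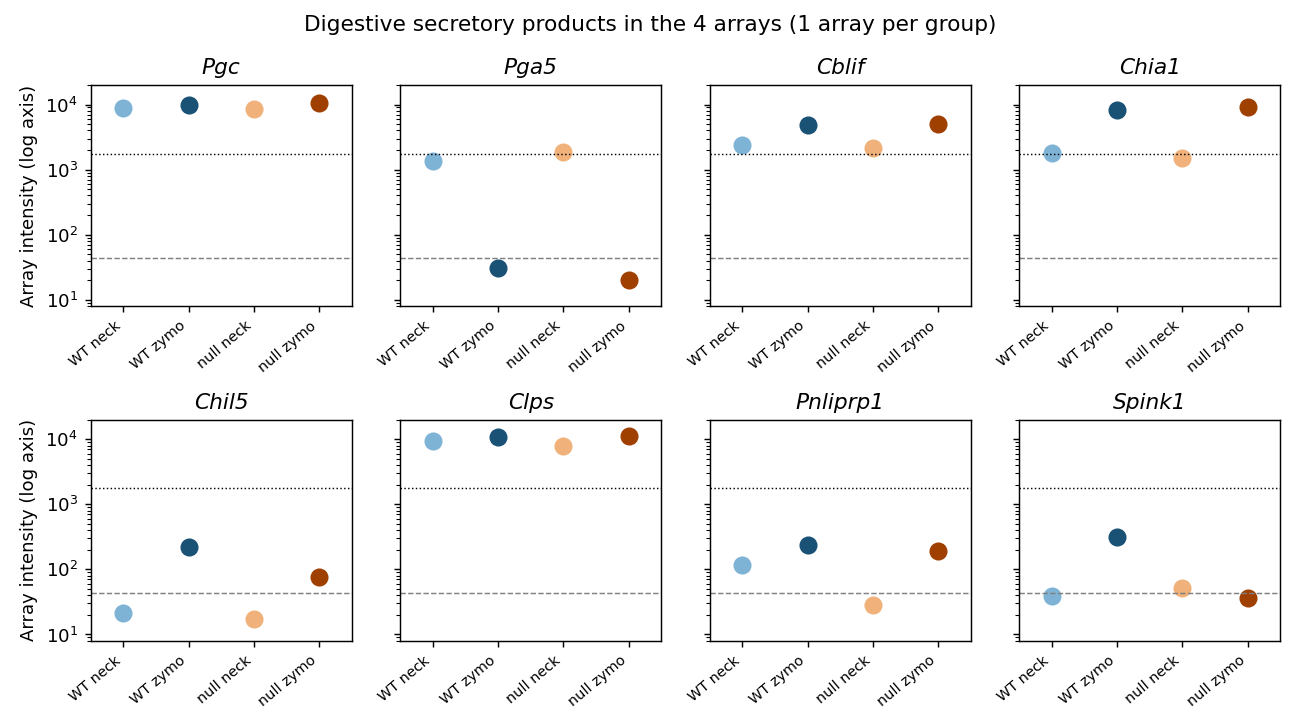
Array intensity (log axis) of each of the 8 products in wild-type (WT) and MIST1-null (null) neck and zymogenic (zymo) cells, 1 point per array. The dashed line is the detection level of 43.7 and the dotted line, at 1760, marks the highest 1% of probe set values. Pgc and Clps stay above the dotted line in all 4 arrays, and Pga5 reads 1350 and 1884 in neck cells against 31.0 and 20.4 in zymogenic cells.

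Among the pepsinogens, Pgc (progastricsin) read 8698 in wild-type neck, 9982 in wild-type zymogenic, 8672 in MIST1-null neck and 10638 in MIST1-null zymogenic cells. The zymogenic arrays were the higher of each pair, by 0.20 in wild-type and 0.29 in MIST1-null mice. In neck cells the genotypes differed by 0.00, and in zymogenic cells by 0.09. The acid protease that Pgc encodes is the product most used to name zymogenic cells, yet its RNA signal did not separate them from neck cells by 2-fold here.

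Pga5, which encodes a pepsinogen of the A group, gave the opposite picture. It read 1350 in wild-type neck and 1884 in MIST1-null neck cells, against 31.0 in wild-type zymogenic and 20.4 in MIST1-null zymogenic cells. In each genotype the neck value lay far above the zymogenic value. The differences were -5.45 in wild-type and -6.53 in MIST1-null mice. Of the 11778 genes detectable in the wild-type comparison and the 11322 detectable in the MIST1-null comparison, only 1 gene had a larger difference in each. Since the zymogenic values were under the detection level, a bound is the firmer statement: the neck value was 30.9-fold above that level in wild-type and 43.1-fold above it in MIST1-null mice. Between genotypes Pga5 differed by 0.48 in neck cells, and in zymogenic cells it was not detectable.

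The genes whose pattern over the 4 arrays came closest to Pga5 were the mitotic kinase gene Plk1, Muc6 and Oit1. Likeness here is the root mean square difference of log2 values after each gene is centred on its own mean, among 6210 genes. It was 0.45 for Plk1, 0.45 for Muc6 and 0.47 for Oit1, and only these 3 genes lay within 0.5 of Pga5. With 4 arrays per gene, a like pattern is a description only. Muc6 belongs to a list of 6 mucous neck cell markers, of which 5 were lower in zymogenic cells, like Pga5, and Aqp5 was higher there. All 6 were above the detection level in both neck arrays, with summed intensities of 9616 in wild-type and 11845 in MIST1-null cells. In zymogenic cells 5 of 6 were above it in wild-type (sum 1839, Muc6 under it) and 3 of 6 in MIST1-null mice (sum 689, with Muc6, Gkn3 and A4gnt under it). Their part in the Pga5 difference was not tested.

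Other aspartic proteases were read from a list of 7 genes, 6 of them on the array. In wild-type mice 4 were detectable, 0 had a zymogenic value 2-fold or more above the neck value and 3 had one as far below. The list median was -1.28 against 0.02 over all detectable genes, of which 6.78% were as far below. In MIST1-null mice 1 of 4 was lower, against 4.8% of all genes, with a list median of -0.34 against 0.05. Ctse (cathepsin E, an intracellular aspartic protease of the gastric epithelium) read 1536 in wild-type neck and 623 in wild-type zymogenic cells. Its MIST1-null values were 2166 in neck and 1757 in zymogenic cells. Wild-type zymogenic cells thus had the lowest value, and the difference between genotypes in zymogenic cells was 1.50. Ctsd, the lysosomal cathepsin D, read 316 in wild-type neck, 133 in wild-type zymogenic, 286 in MIST1-null neck and 219 in MIST1-null zymogenic cells. The membrane protease gene Bace2 was high in neck cells only, at 79.8 and 166 against 10.5 and 12.7. Cym, the milk-clotting chymosin, reached the detection level in 0 of 4 arrays.

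Cblif encodes gastric intrinsic factor, which carries vitamin B12 to its receptor in the intestine and is made by zymogenic cells in mice. It read 2373 in wild-type neck and 4882 in wild-type zymogenic cells, a difference of 1.04. The MIST1-null values were 2120 in neck and 5029 in zymogenic cells, a difference of 1.25. In each genotype the zymogenic array was thus the higher. Of 11778 detectable genes in wild-type mice 1403 differed more, and of 11322 in MIST1-null mice 685 did, in either direction. Between genotypes Cblif differed by 0.04 in zymogenic and -0.16 in neck cells. Of 7 other carriers and receptors of vitamin B12, 5 were detectable in each comparison and 0 were at least 2-fold apart in any of them, where 4.29% to 13.1% of all genes were. Lmbrd1, which takes part in the export of vitamin B12 from lysosomes, came nearest, at 78.4 in neck and 39.2 in zymogenic cells of wild-type mice, a difference just short of 2-fold. The plasma carrier Tcn2 differed by -0.81 between zymogenic and neck cells in wild-type mice, and the receptor subunit Amn by 0.76 between genotypes in zymogenic cells.

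Chia1, the acidic chitinase, breaks down chitin of insects and fungi in the stomach. It read 1806 in wild-type neck and 8209 in wild-type zymogenic cells, and 1494 in MIST1-null neck and 9022 in MIST1-null zymogenic cells. Its zymogenic values were above its neck values in both genotypes, by 2.18 in wild-type and 2.59 in MIST1-null mice. These were the largest differences among the 4 products that exceeded the detection level in every array. Between genotypes Chia1 differed by 0.14 in zymogenic and -0.27 in neck cells.

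Chil5, a chitinase-like gene beside Chia1, was also higher in zymogenic cells, but at a lower signal. It read 21.4 in wild-type neck, 220 in wild-type zymogenic, 17.4 in MIST1-null neck and 76.5 in MIST1-null zymogenic cells. Both neck values were under the detection level. The wild-type zymogenic value was 5.03-fold above that level and the MIST1-null zymogenic value 1.75-fold above it. The measured differences between cell types were 3.36 and 2.13, and setting low values to the detection level left 2.33 and 0.81, the latter under 2-fold. Chil5 was lower in MIST1-null than in wild-type zymogenic cells by -1.52, with both values above the detection level, while Chia1 differed by 0.14 in the same comparison.

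Chia1 and Chil5 lie next to each other on mouse chromosome 3 in RefSeq (GRCm38.p6), with 0 protein-coding genes between them, and are transcribed away from each other. Chil3, Chil4 and Chil6, which encode chitinase-like lectins, reached the detection level in 0 of 4 arrays, with the highest value at 33.9 for Chil3 in wild-type zymogenic cells. Of 7 other chitinase family genes on the array, 2 were detectable. Chid1, a chitinase domain gene, read 133 in wild-type zymogenic cells and between 38.6 and 46.5 in the other 3 arrays. Its difference between genotypes in zymogenic cells was -1.79, with the MIST1-null value under the detection level. It was the 1 of the 2 past 2-fold in that comparison, where 5.23% of all genes were as far below. Ctbs, which trims sugars in the lysosome, stayed between 36.5 and 51.3.

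RefSeq promoters of 250 bases before and 50 bases after the start were at hand for 5 of the 8 products. They are shown for the 4 genes whose zymogenic value was 2-fold or more above the neck value in each genotype, since these ran together between the cell types. Each is written 5′ to 3′ on the gene's own strand in GRCm38.p6, and capitals mark E-boxes, the sites with the letters CANNTG that basic helix-loop-helix factors bind. Chia1 is at chr3:106113132-106113431 on the plus strand, Chil5 at chr3:106032846-106033145 on the minus strand, Cblif at chr19:11747309-11747608 on the plus strand and Pnliprp1 at chr19:58728637-58728936 on the plus strand.
Chia1: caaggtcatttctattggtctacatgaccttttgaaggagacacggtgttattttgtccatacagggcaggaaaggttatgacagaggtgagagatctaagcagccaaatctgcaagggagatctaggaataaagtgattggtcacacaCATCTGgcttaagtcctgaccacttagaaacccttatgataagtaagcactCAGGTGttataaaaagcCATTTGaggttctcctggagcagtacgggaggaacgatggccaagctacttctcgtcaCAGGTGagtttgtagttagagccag
Chil5: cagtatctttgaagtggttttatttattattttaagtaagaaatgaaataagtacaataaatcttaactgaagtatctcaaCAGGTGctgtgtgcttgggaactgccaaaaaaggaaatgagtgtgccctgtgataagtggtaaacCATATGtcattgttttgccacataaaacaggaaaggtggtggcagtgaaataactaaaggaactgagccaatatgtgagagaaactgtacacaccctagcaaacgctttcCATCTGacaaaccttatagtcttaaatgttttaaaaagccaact
Cblif: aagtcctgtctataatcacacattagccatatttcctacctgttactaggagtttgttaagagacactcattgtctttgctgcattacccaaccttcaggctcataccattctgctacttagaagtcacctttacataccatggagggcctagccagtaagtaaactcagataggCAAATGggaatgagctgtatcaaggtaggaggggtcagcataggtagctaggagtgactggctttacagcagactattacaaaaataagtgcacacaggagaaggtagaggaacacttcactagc
Pnliprp1: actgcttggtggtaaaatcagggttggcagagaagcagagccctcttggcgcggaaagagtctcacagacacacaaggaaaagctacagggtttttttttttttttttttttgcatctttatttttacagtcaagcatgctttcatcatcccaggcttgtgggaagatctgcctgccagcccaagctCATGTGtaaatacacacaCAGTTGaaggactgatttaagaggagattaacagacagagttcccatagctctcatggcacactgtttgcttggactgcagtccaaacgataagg

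E-boxes numbered 4 in the Chia1 window, 3 in Chil5, 2 in Pnliprp1, 1 in Cblif and 0 in the Pgc window, which is not printed. Since CANNTG reads the same on both strands, each site was counted once, and 72.3% of all 32851 promoters of this length in the table held at least 1. The form CATATG, a palindrome and a subset of CANNTG, was found in Chil5 only of the 5, with its first base 104 bases before the start, and 3.91% of all promoters held it. CAGCTG, another palindromic subset, was found in 0 of the 5 and in 16.3% of all. The letters TATAAA, searched on both strands, were found in the Chia1 and Pgc windows and in 13.6% of all. These matches describe letters in a window and say nothing of binding.

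Clps encodes colipase, the cofactor that lets pancreatic lipase work in the presence of bile salts. It read 9327 in wild-type neck, 10705 in wild-type zymogenic, 7831 in MIST1-null neck and 11106 in MIST1-null zymogenic cells. The zymogenic value was above the neck value in each genotype, with differences of 0.20 in wild-type and 0.50 in MIST1-null mice. These were not large: 8836 of 11778 detectable genes in wild-type and 3798 of 11322 in MIST1-null mice differed more, in either direction. Clps had the highest intensity of any named gene in 3 of the 4 arrays and ranked 3rd in MIST1-null neck cells. Between genotypes it differed by 0.05 in zymogenic and -0.25 in neck cells.

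Pnliprp1, a relative of pancreatic lipase, read 116 in wild-type neck, 240 in wild-type zymogenic, 28.7 in MIST1-null neck and 193 in MIST1-null zymogenic cells. The MIST1-null neck array alone was under the detection level. The cell type difference was 1.05 in wild-type and 2.74 in MIST1-null mice, the latter at least 4.41-fold when the neck value is set to the detection level. In neck cells the MIST1-null value was lower by -2.01, at least 2.65-fold with that bound, and in zymogenic cells the genotypes differed by -0.32. The genes closest to it in pattern were Bicc1 (likeness 0.09), which encodes an RNA-binding protein, the nuclear receptor gene Nr2f1 (0.22) and the interferon-induced Ifitm3 (0.23), among 35 genes within 0.5.

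Cel, a bile salt-stimulated lipase, had the same order of values as Pnliprp1, at 47.3, 74.8, 17.2 and 71.3 in the order of groups above. Fibroblast and smooth muscle, endocrine and immune markers were also lowest in that MIST1-null neck array. Summed over 8 fibroblast and smooth muscle genes, the intensity was 370 there, against 554 in wild-type neck, 1260 in wild-type zymogenic and 1587 in MIST1-null zymogenic cells. In that array 4 of the 8 were above the detection level, with Acta2, Tagln, Myh11 and Col3a1 under it, against 7 of 8 in each of the others. The 6 endocrine markers summed to 3703 there and to 5762, 8743 and 12793 in the others, in the same order, and 0 of 7 immune markers were above the detection level. Their part in the Pnliprp1 values was not tested. Fewer cells of a type and less RNA per cell cannot be told apart in pooled samples.

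Spink1 encodes a small secreted trypsin inhibitor that guards acinar cells against their own proteases. It read 38.7 in wild-type neck, 319 in wild-type zymogenic, 51.9 in MIST1-null neck and 36.05 in MIST1-null zymogenic cells. Only the wild-type zymogenic array stood apart, and the other 3 lay close to the detection level. The difference between genotypes in zymogenic cells was -3.14, and that between cell types in wild-type mice was 3.04. These comparisons share the wild-type zymogenic array, so they are not independent of each other. The wild-type zymogenic value was 7.30-fold above the detection level. In MIST1-null mice the cell types differed by -0.53, and in neck cells the genotypes differed by 0.42.

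For parietal cell markers, the array on which Spink1 rests had the lowest level of the 4. Their 8 genes summed to 4534 there, with Kcnq1, Slc26a7 and Slc4a2 under the detection level, against 7969 to 9345 in the others. It also had the highest Bhlha15 value. The part of either in the Spink1 values was not tested. The genes closest to Spink1 in pattern were Greb1l (likeness 0.32), the zinc finger gene Plag1 (0.40) and Dennd1a (0.45), among 7 genes within 0.5. Among 12 other secreted inhibitors on the array, Spink4 was the only SPINK gene above the detection level in all 4 arrays. It ran towards neck cells, at 320 and 258 in neck against 101 and 65.8 in zymogenic cells. Wfdc2 read 119 and 369 in wild-type and MIST1-null neck cells and was under the detection level in both zymogenic arrays.

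In wild-type mice, 6 of 8 products were at least 2-fold apart between cell types, where 13.1% of all detectable genes were. Of these, 5 were higher in zymogenic cells (6.28% of all genes) and 1 was lower (6.78% of all). The median over the products was 1.05, against 0.02 over all genes. In MIST1-null mice 5 of 8 were apart, against 9.7% of all genes, with 4 higher (4.9% of all) and 1 lower (4.8% of all) and a median of 0.88 against 0.05. The products were chosen with such results known, so these counts describe them and nothing more.

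Between genotypes fewer products were apart. In zymogenic cells 7 were detectable and 2 of them, Chil5 and Spink1, were at least 2-fold lower in MIST1-null mice, with 0 higher. Over all genes 10.4% were apart in this comparison, 5.15% higher and 5.23% lower. The median was 0.04, the same as the 0.04 over all genes. Cblif, Chia1, Clps and Pgc differed by 0.04 to 0.14, and across all scalings tried these 4 stayed between -0.10 and 0.18, so no direction is given for them. In neck cells 7 were detectable and 1, Pnliprp1, was at least 2-fold lower, with a median of -0.16 against 0.00. There 4.29% of all genes were apart, 1.89% higher and 2.4% lower.

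**Figure D2:**
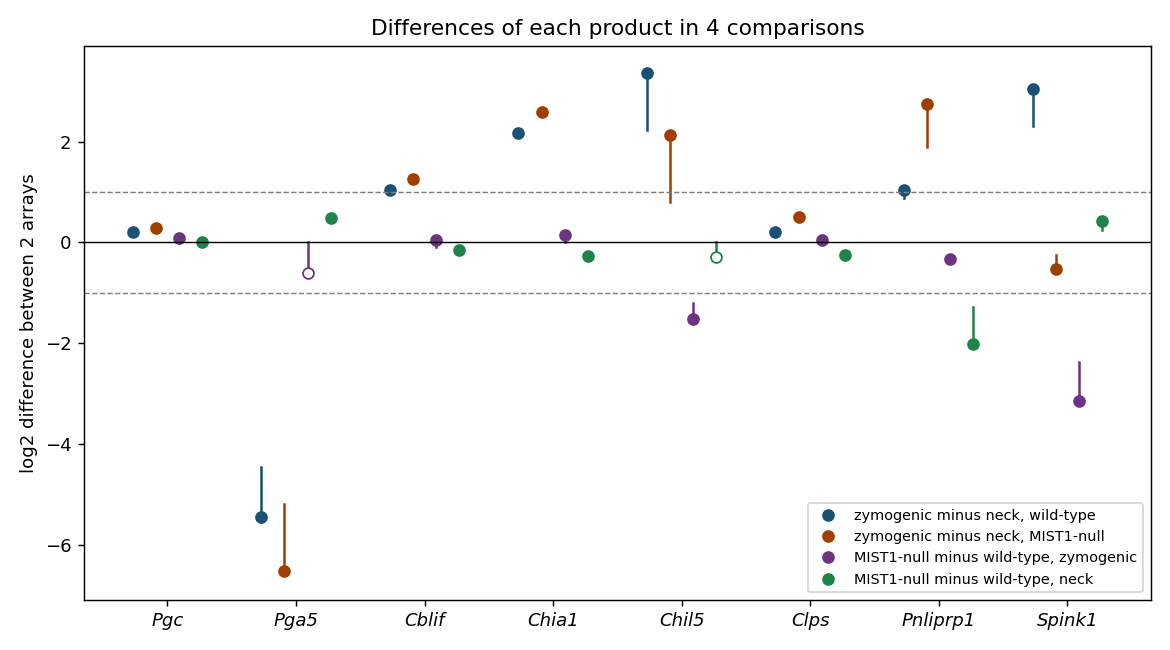
Log2 difference of each product in the 4 comparisons, 1 point per comparison and gene. Lines span the values under the other scalings and treatments of low values, open points were not detectable, and dashed lines mark 2-fold. Chia1 sits at 2.18 and 2.59 for cell type and near 0 for genotype, while Spink1 sits at 3.04 for cell type in wild-type mice and at -3.14 for genotype in zymogenic cells.

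The cell type difference itself shifted between genotypes for some products. Subtracting the wild-type from the MIST1-null difference gave -3.57 for Spink1, 1.69 for Pnliprp1, -1.23 for Chil5 and -1.08 for Pga5. The other 4 moved by 0.10 for Pgc, 0.21 for Cblif, 0.31 for Clps and 0.41 for Chia1. Over all 10165 genes detectable in both genotypes, 13.6% shifted by 2-fold or more. Spink1, Pnliprp1, Chil5 and Pga5 each had at least 1 array under the detection level. With low values set to that level, in an alternative added after seeing the data, the shifts were -3.12 for Spink1, 1.09 for Pnliprp1, -1.52 for Chil5 and -0.48 for Pga5, the last under 2-fold. With a pseudocount of 32 they were -2.61, 1.00, -1.10 and -0.74 in the same order. Spink1, Chil5 and Pnliprp1 thus kept a shift of 2-fold or more in both, Pnliprp1 only just at the limit with the pseudocount. Pga5 fell short of 2-fold in both.

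The level of a product bears on what a difference can show. Pgc and Clps read 7831 to 11106, while the highest single-gene probe set was at 8717 to 11106 and the highest of any probe set at 13823 to 14251 in the 4 arrays. Chia1 ranked 5th among all genes in both zymogenic arrays, and 114th and 169th in the neck arrays. Cblif ranked 15th and 21st in zymogenic and 75th and 102nd in neck cells. Where both arrays read near the top of the range, a true difference may be compressed, so the small differences of Pgc and Clps do not show equal RNA amounts.

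Genes in the highest 1% of levels differed less than the rest in each of the 4 comparisons. In wild-type mice 4.59% of 109 such genes were at least 2-fold apart between cell types, against 10.2% of 1595 genes between the 90th and 99th percentile and 12.8% of 2946 between the 75th and 90th. Between genotypes in zymogenic cells 0 of 117 genes in the highest 1% were apart, against 6.40% of 1626 just below. The median absolute difference there was 0.27. Chia1, with 2.18 between cell types in wild-type mice, passed 2-fold within this range.

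**Figure D3:**
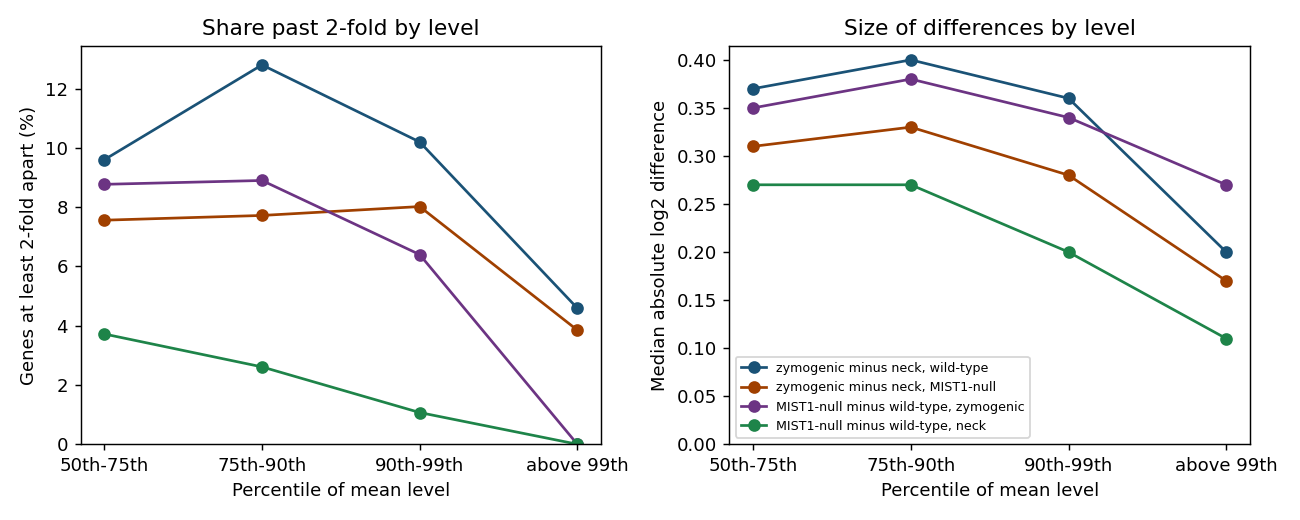
Share of genes at least 2-fold apart (left) and median absolute log2 difference (right) by the percentile of a gene's mean level, 1 line per comparison. For the highest 1% the share falls to 4.59% and 3.85% between cell types and to 0 between genotypes.

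Clps, Pnliprp1 and Spink1 are widely known from the pancreas, so other pancreatic exocrine products were read, 25 of 31 listed genes being on the array. In wild-type mice 16 were detectable, of which 5 read at least 2-fold higher and 2 lower in zymogenic cells, where 6.28% and 6.78% of all genes did. Their median was 0.44 against 0.02. In MIST1-null mice 14 were detectable, with 7 higher and 0 lower, where 4.9% and 4.8% of all genes were, and a median of 0.86 against 0.05. Pla2g1b, a secreted phospholipase, read 8848 in wild-type neck, 10385 in wild-type zymogenic, 7476 in MIST1-null neck and 10556 in MIST1-null zymogenic cells. It ranked beside Clps and Pgc at the top of the arrays, with zymogenic above neck values. Amy1, a starch-digesting amylase that is not particular to the pancreas, read 239 and 427 in wild-type and MIST1-null neck cells. It read 1704 and 899 in the zymogenic arrays. The listed amylase genes Amy2a5 and Amy2b had no probe set with 1 gene, so Amy1 does not stand for them.

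Pnliprp2, a lipase of the same family as Pnliprp1, read 993 in wild-type neck, 2027 in wild-type zymogenic, 857 in MIST1-null neck and 1027 in MIST1-null zymogenic cells. Its difference between genotypes in zymogenic cells was -0.98, just under 2-fold. The gastric lipase gene Lipf reached the detection level in 0 of 4 arrays.

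Between genotypes in zymogenic cells, 17 of the 25 pancreatic products were detectable, with 5 higher in MIST1-null mice and 2 lower, where 5.15% and 5.23% of all genes were, and a median of 0.02 against 0.04. The trypsinogen-like Try10 read 636 in MIST1-null zymogenic cells and 118 to 158 elsewhere. Try5 read 393 there and 36.8 to 155 elsewhere, and Try4 read 672 against 209 to 247. These trypsinogen genes are near copies of each other, so their probe sets may share signal and are uncertain as single genes. They were highest in the array in which Spink1, an inhibitor of trypsin, read 36.05. Spink1 was about as low in wild-type neck cells, at 38.7, where Try4, Try5 and Try10 read 220, 36.8 and 118. Rnase1 was also higher in MIST1-null than in wild-type zymogenic cells, at 248 against 74.5. A link between Spink1 and the trypsinogen genes was not tested.

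A list of 12 pancreatic acinar cell markers was also read, of which Amy2a5 and Pnlip had no probe set with 1 gene. Of 10 acinar markers on the array, 1 to 5 were above the detection level per array, and none of their readings exceeded 80.8. Prss2, Cela3b, Rbpjl and Nr5a2 reached it in 0 of 4 arrays. The summed intensity of the 10 was 387 in wild-type neck, 424 in wild-type zymogenic, 321 in MIST1-null neck and 438 in MIST1-null zymogenic cells. Clps read 7831 or more in each array, and Pla2g1b, which is not among these markers, 7476 or more. The source of the Clps and Pla2g1b signal was not tested.

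**Figure D4:**
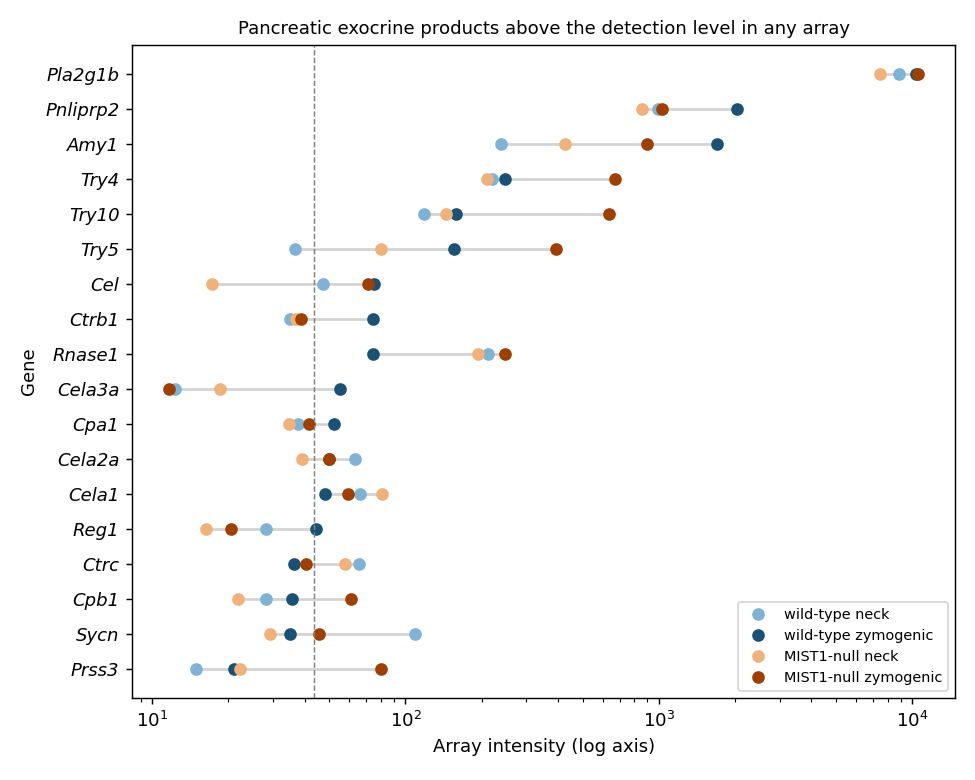
Array intensity (log axis) of the pancreatic exocrine products that exceeded the detection level (dashed line) in at least 1 array, 1 point per array. Pla2g1b lies between 7476 and 10556, Amy1 is highest in wild-type zymogenic cells at 1704, and Try4, Try5 and Try10 are highest in MIST1-null zymogenic cells.

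Genes of granule release were read as well, 11 of 12 listed genes being on the array. In zymogenic cells 9 were detectable between genotypes and 0 were at least 2-fold apart, where 10.4% of all genes were, with a median of -0.08 against 0.04. Between cell types in wild-type mice, 1 of 10 detectable genes was at least 2-fold higher in zymogenic cells and 1 lower. Over all genes 6.28% and 6.78% were. In MIST1-null mice 1 of 8 was higher and 2 were lower, where 4.9% and 4.8% of all genes were. The calcium sensor gene Syt7 read 57.6 and 56.7 in wild-type and MIST1-null zymogenic cells and 27.6, under the detection level, in each neck array. The granule adaptor gene Sytl2 was higher in neck cells, at 93.7 and 103 against zymogenic values under the detection level, 20.5 and 21.0. Rab27b, a GTPase of granule docking, was also higher in neck cells, at 223 and 246 against 132 and 112. Vamp8, a SNARE protein of secretory granules, stayed between 673 and 848.

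The arrays' markers also set limits on the labels. Some of the products were abundant in the cells labelled neck, where Pgc, Cblif, Chia1 and Clps all read 1494 or more and Pga5 1350 or more. Others were not: in wild-type and MIST1-null neck cells Chil5 read 21.4 and 17.4, Spink1 38.7 and 51.9, and Pnliprp1 116 and 28.7. Of the 6 neck markers, 5 were at least 2-fold lower in the zymogenic arrays and the exception was the water channel Aqp5, at 95.5 and 92.0 against 65.7 and 62.5. Tff2, a trefoil peptide of neck mucus, still read 1320 in wild-type zymogenic cells. The mean levels of endocrine, fibroblast and smooth muscle, and immune markers were higher in both zymogenic arrays than in either neck array, in the same direction as Chia1, Cblif, Chil5 and Pnliprp1. So were those of surface mucous markers, at 8.78 and 9.06 in zymogenic against 8.45 and 8.41 in neck cells, with 5 of 5 detectable genes above 0 in both genotypes and 0 of them at least 2-fold apart. Chga, an endocrine granin, differed by 2.05 in wild-type and 3.93 in MIST1-null mice, and Acta2 by 2.17 and 2.89. The immune markers were mixed in wild-type mice, where 4 of 7 were detectable. Of these 4, 2 rose past 2-fold from neck to zymogenic cells and 1 fell as far. The 1 that fell was Cd53, at 118 in neck and 56.7 in zymogenic cells. In MIST1-null mice 4 were again detectable, of which 3 rose past 2-fold and 0 fell as far. The part of these markers in the cell type differences of the products was not tested.

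**Figure D5:**
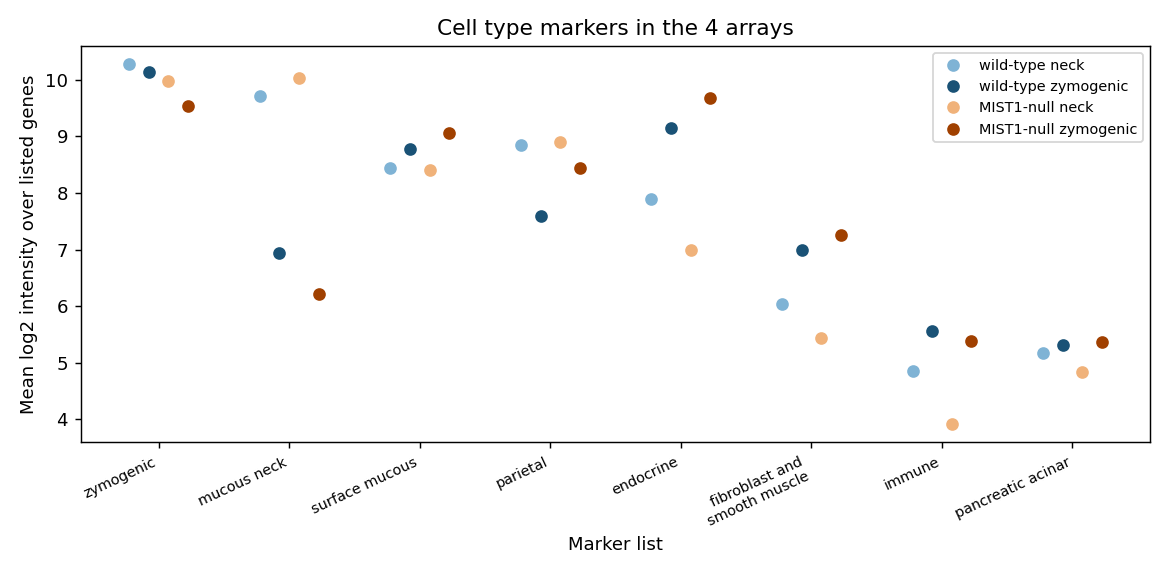
Mean log2 intensity over the genes of each marker list, 1 point per array. The zymogenic list holds Pgc, Cblif, Chia1, Pga5 and Bhlha15. Neck markers separate the cell types (9.71 and 10.03 against 6.94 and 6.22), and the MIST1-null neck array is lowest for endocrine (7.00), fibroblast and smooth muscle (5.43), immune (3.91) and pancreatic acinar (4.84) markers.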

How the data were processed

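The deposited values are probe set intensities on a linear scale, from 0.86 to 14251, which the authors made in dChip from Affymetrix Mouse Gene 1.0 ST arrays per the series design text. How dChip corrected background, summarised probes and scaled arrays is not stated in the sources used here. Per the labels' protocols, about 100 ng RNA was pooled per group and amplified. Mice numbered 4 wild-type and 5 Mist1-/- in the design text.

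Of 35512 probe sets, 21789 with exactly 1 gene were used, and 1621 with several and 12102 without a listed gene were not. The probe set with the highest mean stood for a gene. Entrez identifiers of all 8 products matched RefSeq. Intensities under 1 were set to 1, turned to log2, and differences called at 2-fold. The number of arrays limits precision, and signal over background is unknown. Genes named were the 8 products, up to 4 largest differences per related list and comparison, the 3 nearest patterns for products spanning 4-fold or more, and markers. Other list members named, and Bhlha15 and Muc6 as checks, serve as examples. Members and lists were chosen with earlier results of these data known.

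Alternatives were quantile, median and cyclic loess scaling (limma 3.58.1, R 4.3.3), a pseudocount of 32, low values set to the detection level, no filter or a 75th percentile filter, averaging probe sets, and leaving out products in the highest 1%. Fold calling was tested on simulated data with large changes in genes of high signal only. That test says nothing of calls near 2-fold or at low signal. Python 3.11.15 and pandas 2.3.3 were used.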

Additional observations from a re-analysis of the deposited data

Results flagged for a closer look

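Spink1 was flagged because its differences had opposite signs in the groups compared. Zymogenic minus neck was 3.04 in wild-type and -0.53 in MIST1-null mice, and MIST1-null minus wild-type was -3.14 in zymogenic and 0.42 in neck cells. With 1 array per group the difference between these was not tested. The values of 3.04 and -3.14 both use the wild-type zymogenic array, which read 319. The values of -0.53 and 0.42 come from the other 3 arrays, which read 36.05 to 51.9.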

How the results depend on the processing

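With 1 array of pooled RNA per group, no array could be left out and no paired analysis was possible. An additive fit of genotype and cell type over the 4 arrays, which would take the difference of differences as its error, was not run. The number of products at least 2-fold apart stayed within 1.5 times of its value under all 9 alternatives in each comparison. In wild-type mice it was 4 in place of 6 between cell types under median centring and 5 with the pseudocount. With products in the highest 1% left out it was 4 of the 4 that remained. The median of the products between cell types in wild-type mice, 1.05, was 0.99 under median centring and 0.96 with the pseudocount of 32. Leaving out products in the highest 1% in both arrays changed the medians. Between cell types, 1.05 became 2.05 over 4 products in wild-type mice, and 0.88 became 2.13 over 5 in MIST1-null mice. Between genotypes in zymogenic cells, 0.04 turned to -1.52 over 3 products. The products left out there, Pgc, Clps, Cblif and Chia1, differed by only 0.04 to 0.14. In neck cells -0.16 became 0.08 over 4. Near the 2-fold limit, the wild-type cell type difference of Cblif was 0.98 under median centring and that of Pnliprp1 0.99, or 0.88 with the pseudocount. No called difference of a single product turned its sign. Averaging probe sets left the products as they were, as each has 1. Counts over all genes moved more: between cell types in wild-type mice 740 higher and 799 lower became 262 and 314 with the pseudocount and 366 and 516 with low values at the detection level. In MIST1-null mice 555 and 543 became 214 and 222, or 287 and 330. Between genotypes 609 and 619 in zymogenic cells became 166 and 179, or 340 and 309, and 207 and 263 in neck cells became 28 and 53, or 92 and 100. Without a filter on low values the neck counts were 333 and 556. The number of arrays, low signal for Chil5, Pnliprp1 and Spink1, and the top of the range for Pgc and Clps limit these results.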
